A study of Mus musculus with 12 samples.

Results

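The 10 genes of MHC class II presentation described here are Ciita, Cd74, H2-Aa, H2-Ab1, H2-Eb1, H2-DMa, H2-DMb1, H2-DMb2, H2-Oa and H2-Ob. They were listed by name for their known role in the pathway, with earlier results of these data known, and every probe set annotated to them was taken whatever its values. The arrays carried 22 such probe sets, of which 19 are annotated to 1 gene symbol and 3 to several. All 19 passed the filter on low signal, which used the mean over all arrays, and 9 of the 10 genes were tested among 12190 genes in all. H2-DMb1 has no probe set of its own here and was read only through 2 probe sets that it shares with H2-DMb2.

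Follicular B cells were sorted from spleens of male 129SvEv mice aged 8 weeks by a gate on B220+, AA4.1-, CD23hi and CD21int cells. Their genotype was wild type or labelled cko for Zfx, which encodes a zinc-finger transcription factor, and each was stimulated through its antigen receptor with anti-IgM antibody at 10 µg/mL. The 6 groups are wild type at 0, 2 and 12 h and cko at 0, 2 and 12 h, with 2 arrays each, and both genotypes share strain, sex, age, sort and antibody. No source used here gives the driver of the Zfx deletion, the deleted part or whether mice were pooled. The labels' protocols describe duplicate hybridization of labelled RNA, so a p-value here reflects the spread between arrays alone, and that spread may be technical. Zfx itself, by its brightest probe set, read higher in the groups labelled cko than in wild type at 0 h (log2 difference 1.23 ± 0.09, SE), at 2 h (0.32 ± 0.09) and at 12 h (0.38 ± 0.09). Without the position of the deleted part these values do not check the labels, and genotypes are named below as labelled.

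Signals are linear intensities with a trimmed mean of 250 on every array. The ratio of the 5′ to the 3′ signal of the actin control was 1.80 to 3.33% on the 6 arrays of wild type at 0 h, wild type at 12 h and cko at 0 h, and 8.41 to 19.1% on the other 6 arrays, those of both genotypes at 2 h and of cko at 12 h. The brightest signal of an array was 43743 to 53319 on the former and 28701 to 33534 on the latter. The comparisons of the genotypes at 0 h and at 2 h, of 12 h with 0 h in wild type and of 12 h with 2 h in cko stay within 1 set of arrays. The other pairwise comparisons cross the sets, and there the group and the array set cannot be told apart. In bulk RNA, fewer cells of a type and less RNA per cell cannot be told apart either. The 6 follicular B cell markers used here were present on every array, among them Ms4a1 at 4672 to 11885, Cd79b at 6620 to 22937 and Fcer2a, the CD23 of the gate, at 1449 to 6452.

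MHC class II molecules carry peptides from endocytosed antigen to the cell surface, where B cells show them to helper T cells. The transactivator Ciita switches the genes on by joining the RFX, CREB and NF-Y factors bound at the X and Y boxes of their promoters. The alpha and beta chains (H2-Aa, H2-Ab1, H2-Eb1) assemble on the invariant chain Cd74, which blocks the peptide groove until proteases trim it in the endosome. H2-DM, made of H2-DMa and an H2-DMb chain, then exchanges the remaining fragment for antigen peptides, and H2-DO, made of H2-Oa and H2-Ob, restrains H2-DM in B cells.

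H2-Oa, H2-DMa, H2-DMb2, H2-DMb1, H2-Ob, H2-Ab1, H2-Aa and H2-Eb1 lie in this order on chromosome 17, and Ciita on chromosome 16. Promoter windows of 300 bases (250 before to 50 after the start, RefSeq, build GRCm38.p6) matched 7 of the 10 genes, with 2 windows for H2-DMa. The stretches around the Y box are printed because these genes share this element, through which class II promoters are known to be regulated. Capitals mark the Y box core TGATTGG and, upstream of it, the X box stretch AACNNATGATG, both searched on both strands and chosen after the sequences were seen (N is any base, here where the stretches of 4 of these genes differ); the motifs do not overlap.
H2-Oa: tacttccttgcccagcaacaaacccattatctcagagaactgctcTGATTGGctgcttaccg
H2-DMb2: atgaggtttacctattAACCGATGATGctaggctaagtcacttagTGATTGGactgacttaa
H2-DMb1: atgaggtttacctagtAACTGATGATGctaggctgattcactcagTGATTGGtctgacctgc
H2-Ob: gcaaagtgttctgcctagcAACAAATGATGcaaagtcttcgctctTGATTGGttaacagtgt
H2-Aa: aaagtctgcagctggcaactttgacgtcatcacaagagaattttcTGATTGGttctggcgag
H2-Eb1: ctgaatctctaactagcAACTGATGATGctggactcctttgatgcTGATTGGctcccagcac

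These lie at chr17:34092289-34092350 for H2-Oa, chr17:34145112-34145173 for H2-DMb2, chr17:34153083-34153144 for H2-DMb1, chr17:34238801-34238862 for H2-Ob, chr17:34287857-34287918 for H2-Aa and chr17:34305761-34305822 for H2-Eb1. H2-Aa is on the minus strand and the others are on the plus strand. The Y box core ended 38 to 85 bases before the start in these 6 genes, and 7.82% of 32851 mouse promoter windows hold it. The X box stretch was taken from the windows of 4 of the genes, so its presence in them was fixed in advance. It was found in 0.137% of all windows. H2-DMb2, H2-DMb1, H2-Ob and H2-Eb1 hold both, with 15 to 18 bases between them. On the printed strand, the only one searched for the pair, 4 of all windows have the X box stretch 10 to 30 bases before the Y box core. These are the windows from which the stretch was taken, so their matching is no test. The printed stretches of H2-DMb1 and H2-DMb2 are identical at 53 of 62 bases. Neither string was found in the windows of H2-DMa, which says only that these letters are not in them. A match is a description of sequence and was not tested for binding.

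After anti-IgM, class II presentation genes, each read by its brightest probe set, went down in both genotypes. At 12 h the falls of Ciita and the peptide-editing genes were -1.50 to -2.43 in wild type and -1.54 to -2.65 in cko, and the differences of the surface chains and Cd74 were -0.13 to -1.03 and -0.89 to -1.13. At 2 h in cko the fall of Ciita (-0.69) was no larger than those of H2-Eb1 (-0.77), Cd74 (-0.77) and H2-Aa (-0.70). The 2 sets of genes were not compared by a test. Relative to 0 h, all 9 tested genes were lower at 2 h in wild type, where 59.7% of all genes were called and 36.2% were lower, and 8 of 9 were lower at 12 h, where 47.9% were called and 23.1% were lower. The median log2 difference of the 9 was -1.21 at 2 h and -1.50 at 12 h, while that of all genes was -0.24 and 0.03. In cko all 9 were lower at 2 h (63% of all genes called, 39.2% lower) and at 12 h (58.9% called, 33.1% lower), with medians of -0.77 and -1.54 beside -0.32 and -0.20 for all genes. The 2 h and 12 h comparisons of a genotype share its 0 h arrays and are not independent of each other.

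**Figure D1:**
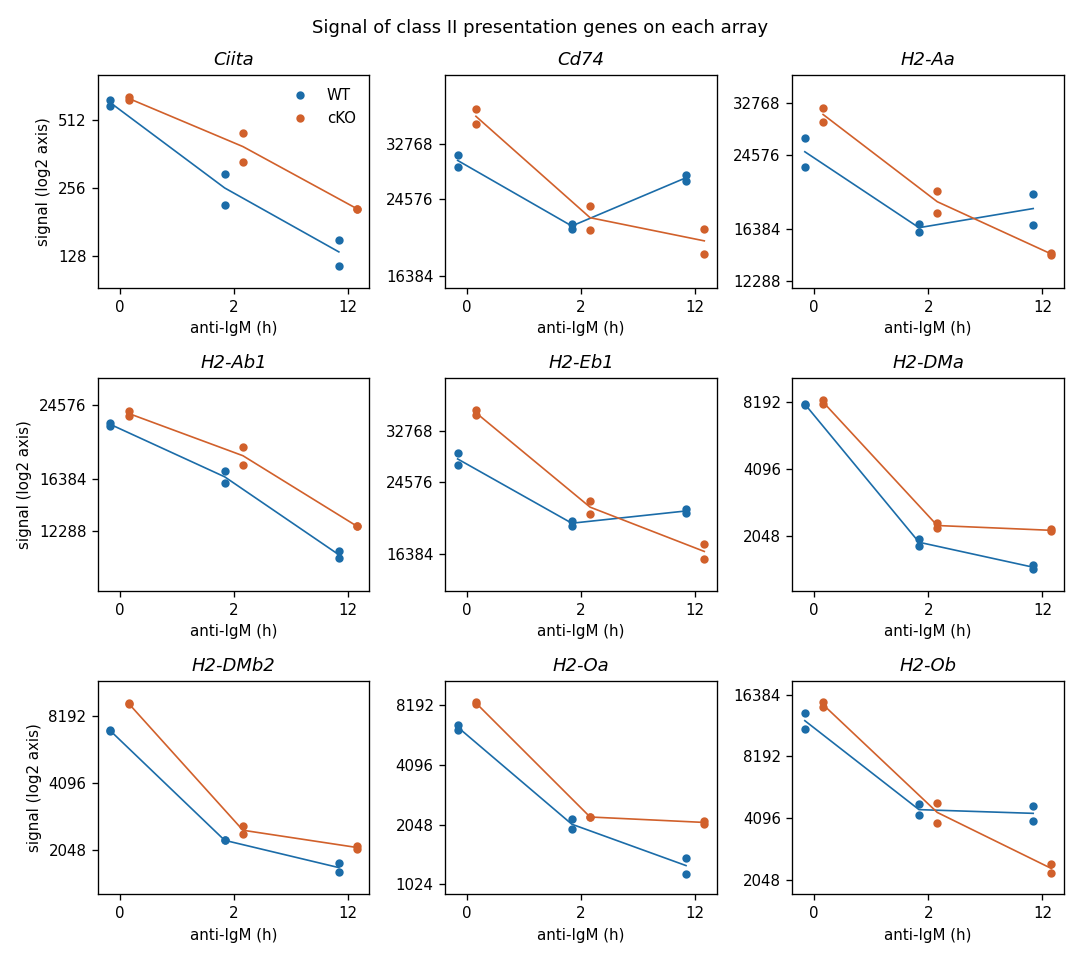
Signal of the brightest probe set of each tested gene (log2 axis) against time of anti-IgM in h (equally spaced), with 1 point per array, lines through the means of 2 arrays, wild type in blue and cko in orange. Ciita, H2-DMa, H2-DMb2, H2-Oa and H2-Ob are higher at 0 h than at 2 or 12 h in both genotypes, and so are H2-Aa, H2-Ab1 and H2-Eb1 by less; Cd74 at 12 h in wild type (27912 and 27087) lies close to its 0 h level.

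Ciita, the master regulator of the pathway, read 589 and 625 on the wild-type arrays at 0 h, 296 and 216 at 2 h, and 151 and 117 at 12 h. In cko it read 625 and 643, then 446 and 333, then 207 and 207. Within each genotype the 3 times did not overlap, and each later time was lower. The log2 difference from 0 h in wild type was -1.21 ± 0.17 at 2 h (adjusted p = 2.2e-05) and -2.06 ± 0.17 at 12 h (adjusted p = 1.6e-07), which is 2.31-fold and 4.18-fold on the log2(signal + 16) scale. In cko it was -0.69 ± 0.17 (adjusted p = 0.0024) and -1.54 ± 0.17 (adjusted p = 2.2e-06). From 2 h to 12 h Ciita fell again, by 0.85 ± 0.17 in either genotype. With arrays scaled to a common median, the 2 h fall in cko was -0.41 and no longer called (adjusted p = 0.061).

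A second Ciita probe set, 1421211_a_at, fell from 314 and 361 to 55.6 and 57.8 at 12 h in wild type and from 379 and 335 to 53.6 and 74.1 in cko. The third, 1447075_at, fell less in wild type, from 170 and 127 to 84.5 and 67.1, and in cko it read 215 and 160 at 0 h and 119 and 162 at 12 h, which overlap. Its cko difference at 12 h, -0.38 ± 0.21, was not called (adjusted p over all probe sets = 0.15), so the Ciita fall in cko was called with 2 of its 3 probe sets at 12 h.

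The chains of the peptide exchanger H2-DM fell early. H2-DMa read 8058 and 7991 at 0 h in wild type, 1989 and 1843 at 2 h, and 1450 and 1507 at 12 h; in cko it read 8379 and 8010, then 2217 and 2340, then 2190 and 2146. Most of the drop had thus been reached by 2 h. The log2 difference at 2 h was -2.06 ± 0.06 in wild type (adjusted p = 3e-12) and -1.84 ± 0.06 in cko (adjusted p = 5.5e-12), which is 4.16-fold and 3.58-fold. H2-DMb2 read 7037 and 6970 in wild type at 0 h, 2255 and 2255 at 2 h and 1619 and 1781 at 12 h, and in cko 9333 and 9250, 2401 and 2606, and 2131 and 2055. Its log2 difference at 2 h was -1.63 ± 0.06 in wild type and -1.89 ± 0.06 in cko. From 2 h to 12 h the H2-DMa difference was -0.37 ± 0.06 in wild type, across the array sets, and -0.07 ± 0.06 in cko (not called, adjusted p = 0.36), and the difference between these steps was not tested. With a term for the array set, which fits 1 value for both genotypes, it was -0.02 (adjusted p = 0.9). No wild-type 12 h array enters that value, since the term takes up cko at 12 h, so it does not test the wild-type step.

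The H2-DO chains, inhibitors of H2-DM, fell as well. H2-Oa read 6185 and 6544 at 0 h in wild type, 1939 and 2172 at 2 h, and 1383 and 1156 at 12 h, and in cko 8539 and 8307, 2237 and 2233, and 2051 and 2145. Its log2 difference at 2 h was -1.62 ± 0.08 in wild type and -1.91 ± 0.08 in cko, and from 2 h to 12 h in wild type it was -0.69 ± 0.08. With the array-set term, which fits 1 value for both genotypes, the later step was -0.16 (not called), but no wild-type 12 h array enters it and it does not test the wild-type step. H2-Ob read 11130 and 13318, then 4210 and 4779, then 4672 and 3951 in wild type, where 2 h and 12 h overlap. In cko it read 14225 and 15051, 4861 and 3849, and 2439 and 2197, with no overlap. From 2 h to 12 h its difference was -0.90 ± 0.12 in cko and -0.06 ± 0.12 in wild type (not called). The difference between those later steps was not tested on its own. The cko step crosses no array set, and the wild-type step does.

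The 12 h falls of these 5 genes in wild type lie within 1 array set. They were called under every alternative that fits the genotypes apart, including quantile normalization (-1.64 for H2-Ob to -2.47 for H2-DMa). The means of duplicate arrays fit 1 response for both genotypes, so they do not test wild type alone. In the fit with the array-set term, that term takes up cko at 12 h. Of the 12 h arrays, its 12 h response thus rests on the wild-type ones alone and is no separate check. Both called the 12 h falls of all 5 genes. The summed signal of macrophage and monocyte markers (7 of 7 read) was 2336 to 2441 at 0 h, 1433 to 1439 at 2 h and 1124 to 1249 at 12 h in wild type, and 2602 to 2702, 648.5 to 698.5 and 787.8 to 810.7 in cko. The sum was thus lower after 0 h, but its markers did not move together. Of 6 tested, 3 were lower and 0 higher at 12 h in wild type, where 23.1% of all genes were lower. Cd14 rose at 2 h in wild type (2.52 ± 0.28) and cko (1.83 ± 0.28). At 12 h in cko Cd14 (0.81 ± 0.28) and Adgre1 (0.52 ± 0.19) were higher than at 0 h and 3 were lower, where 33.1% of all genes were lower. The 3 lower at 12 h in both genotypes were Csf1r (-1.22 ± 0.11 in wild type and -3.44 ± 0.11 in cko), C1qb (-1.72 ± 0.30 and -2.17 ± 0.30) and Lyz2 (-0.93 ± 0.09 and -1.05 ± 0.09). T and NK cell markers (6 of 7 read) summed to 970.7 to 991.5, 385 to 400.2 and 283.2 to 300.1 in wild type, and to 1002 to 1100, 321.4 to 365.8 and 410.7 to 430.8 in cko. Of 5 tested, 4 were lower and 0 higher at 12 h in wild type, where 23.1% of all genes were lower. They were Cd3e (-2.92 ± 0.38), Nkg7 (-2.05 ± 0.20), Cd3g (-1.48 ± 0.21) and Cd3d (-1.16 ± 0.16). Dendritic cell markers (6 of 7 read) summed to 186.5 to 187.5, 398.3 to 442.4 and 177.3 to 248.2 in wild type, and to 258.7 to 259.2, 372.4 to 404.7 and 197.1 to 210.3 in cko, higher at 2 h than at 0 h. No defining marker was at 0, and 4 of these markers did not pass the filter: Batf3, Xcr1, C1qa and Cd4, whose lowest signals were 1.48, 2.78, 1.76 and 3.45. Plasma cell markers (4 of 5 read) summed to 5959 to 5976, 5452 to 5998 and 1899 to 2216 in wild type, and to 4118 to 4514, 4524 to 4851 and 2562 to 3079 in cko, lower at 12 h. The part of other cells in the class II result was not tested. The follicular B cell markers themselves summed to 53354 to 54526 at 0 h and 26950 to 27587 at 12 h in wild type, with 5 of 6 tested markers lower at 12 h.

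The invariant chain and the surface chains stayed near the top of the signal range. Cd74, the class II chaperone, read 29165 and 31050 at 0 h in wild type, 21626 and 21061 at 2 h, and 27912 and 27087 at 12 h, and in cko 36412 and 39504, 20930 and 23657, and 18430 and 21056. In wild type the 12 h arrays lay just under the 0 h arrays, with a log2 difference of -0.13 ± 0.07 that was not called (adjusted p = 0.14). Cd74 held 57.2 to 74.1% of the brightest signal of its array, so a change of the array's ceiling moves with its value. All 6 arrays of the high actin ratio, which had the lower maxima, read lower for Cd74 (18430 to 23657) than all 6 of the low ratio (27087 to 39504); 12.8% of all probe sets that passed the filter lay lower in this way.

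H2-Eb1, the beta chain of I-E, read 27056 and 28957, 19767 and 19180, and 21142 and 20601 in wild type at 0, 2 and 12 h. In cko it read 35836 and 36897, 20521 and 22131, and 17289 and 15916. H2-Aa, the alpha chain of I-A, read 23087 and 27064, 16131 and 16852, and 19904 and 16752 in wild type, and 29596 and 32012, 17886 and 20179, and 14170 and 14342 in cko. For both chains the 0 h arrays were the highest of their genotype. Log2 differences at 12 h in wild type were -0.42 ± 0.05 for H2-Eb1 (adjusted p = 1.3e-05) and -0.45 ± 0.09 for H2-Aa (adjusted p = 0.00056), and in cko -1.13 ± 0.05 and -1.11 ± 0.09.

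H2-Ab1, the beta chain of I-A, had the largest fall of the surface chains at 12 h in wild type (-1.03) and the smallest at 2 h (-0.41). Its brightest probe set read 21808 and 22267 at 0 h, 17069 and 16020 at 2 h, and 11000 and 10596 at 12 h, and in cko 23065 and 23734, 17672 and 19465, and 12605 and 12628. The 3 times did not overlap in either genotype. The 12 h log2 difference was -1.03 ± 0.05 in wild type (adjusted p = 1.3e-09) and -0.89 ± 0.05 in cko (adjusted p = 2.9e-09), which is 2.04-fold and 1.85-fold.

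The early falls of these 4 genes depend on scaling. As deposited, the 2 h log2 differences in wild type were -0.50 ± 0.07 for Cd74, -0.60 ± 0.09 for H2-Aa, -0.41 ± 0.05 for H2-Ab1 and -0.52 ± 0.05 for H2-Eb1. After quantile normalization they were -0.01, -0.17, -0.03 and -0.02 and none was called, while Ciita (-1.18), H2-DMa (-2.13), H2-DMb2 (-1.68), H2-Oa (-1.67) and H2-Ob (-1.43) still were. In cko the H2-Ab1 difference at 2 h even changed sign, from -0.33 ± 0.05 to 0.24 (called higher), and those of Cd74 (-0.09), H2-Aa (-0.05) and H2-Eb1 (-0.08) were not called. At 12 h in wild type, which crosses no array set, quantile normalization left all 4 lower and called, Cd74 included (-0.25, adjusted p = 0.0018). The means of duplicate arrays were fitted with 1 response for both genotypes, and the cko part of it crosses the array sets. None of the 4 was called at 12 h in that fit. Its values were -0.96 for H2-Ab1 (adjusted p = 0.052), -0.78 for H2-Aa (0.12) and H2-Eb1 (0.13) and -0.54 for Cd74 (0.31).

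**Figure D2:**
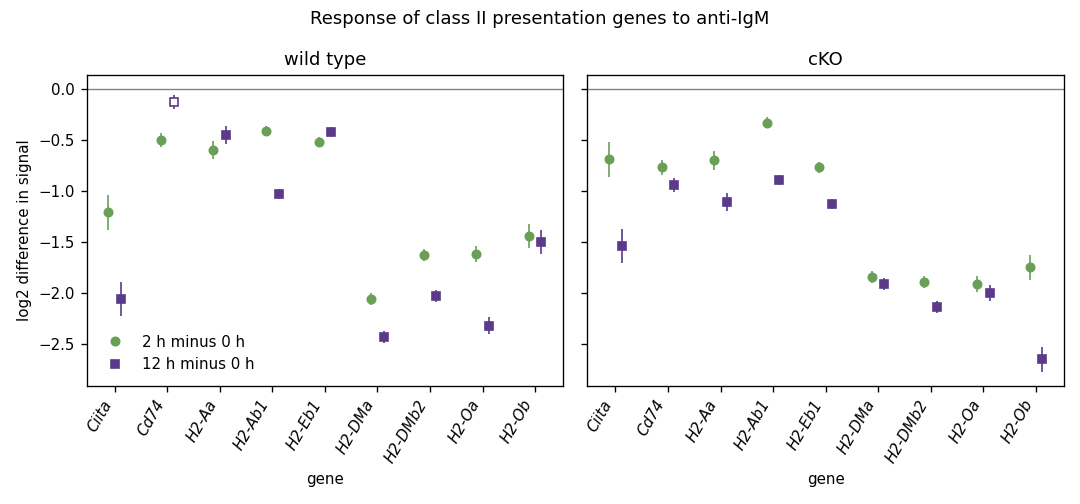
Log2 difference in signal from 0 h (vertical axis, error bars are SE, n = 2 arrays per group) for each tested gene, at 2 h (green circles) and 12 h (purple squares), wild type left and cko right; filled symbols were called and the open symbol, wild-type Cd74 at 12 h, was not. Ciita and the H2-DM and H2-DO genes lie between -0.69 and -2.65 and the other 4 genes between -0.13 and -1.13, and after quantile normalization H2-Ab1 in cko at 2 h turns to 0.24.

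Between 2 h and 12 h, 6 of 9 genes were called in wild type, where 57.3% of all genes were (35.3% higher and 22% lower), with Cd74 higher (0.37 ± 0.07) and Ciita, H2-Ab1, H2-DMa, H2-DMb2 and H2-Oa lower. The Cd74 rise turned to -0.24 after quantile normalization, which called 8 genes lower and 0 higher, and to 0.16 (not called) with median scaling. In cko 7 of 9 were called, all lower, against 49% of all genes and 18.7% in that direction. The cko comparison lies within 1 array set, and its median over the 9 genes was -0.36 beside 0.10 for all genes. H2-Ob (-0.90 ± 0.12), Ciita (-0.85 ± 0.17) and H2-Ab1 (-0.56 ± 0.05) fell the most, and H2-Aa (-0.41 ± 0.09) and H2-Eb1 (-0.36 ± 0.05) fell as well. The call for H2-DMb2 (-0.26 ± 0.06) was lost without cko 2 h array 2 (-0.13). That for Cd74 (-0.18 ± 0.07) was lost without any of the 6 wild-type arrays (-0.18 each), cko 0 h array 1 (-0.18), cko 2 h array 2 (-0.09) or cko 12 h array 1 (-0.08), and without cko 12 h array 2 it was -0.27.

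The genotypes labelled cko and wild type were compared before and during receptor stimulation. At 0 h, by their brightest probe sets, 5 of 9 genes were higher in cko and 0 lower, where 32.3% of all genes were called and 16.3% were higher. They were H2-DMb2 (0.41 ± 0.06), H2-Oa (0.40 ± 0.08), H2-Eb1 (0.38 ± 0.05), Cd74 (0.33 ± 0.07) and H2-Aa (0.30 ± 0.09), with folds of 1.23 to 1.33. The cko and wild-type arrays of each of these genes did not overlap. The same held for Ciita, H2-Ab1 and H2-Ob, so it does not set the called genes apart, and its share over all genes was not counted. Ciita (0.06 ± 0.17), H2-Ab1 (0.09 ± 0.05), H2-DMa (0.03 ± 0.06) and H2-Ob (0.26 ± 0.12) were not called. The other 2 probe sets of H2-Ab1, 1451721_a_at (-0.68 ± 0.11) and 1425477_x_at (-0.89 ± 0.11), were called lower in cko. Of the 19 probe sets of the class II genes, 8 were higher and these 2 lower, while the shares given above are of genes and not of probe sets.

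The 0 h calls were sensitive to scaling and to single arrays. After quantile normalization H2-DMb2 (0.21) and H2-Oa (0.25) stayed higher, Cd74 (0.05), H2-Aa (0.05) and H2-Eb1 (0.12) were not called, and H2-Ab1 became lower (-0.12, adjusted p = 0.039). The call of H2-Aa was lost without wild-type 0 h array 1 (0.19) or cko 0 h array 2 (0.24). Follicular B cell markers were higher in cko at 0 h as well, with 5 of 6 called and a median of 0.25, and their summed signal was 62475 to 63996 against 53354 to 54526 in wild type; their part in the class II difference was not tested.

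At 2 h, 3 of 9 genes were called, all higher in cko, where 28.5% of all genes were called and 12.8% were higher. Ciita differed by 0.58 ± 0.17 (adjusted p = 0.02), H2-DMa by 0.25 ± 0.06 (adjusted p = 0.0066) and H2-Ab1 by 0.17 ± 0.05 (adjusted p = 0.028). All 3 rested on few arrays. Ciita was not called without wild-type 2 h array 2 (0.36) or cko 2 h array 1 (0.37). H2-DMa was not called without wild-type 2 h array 2 (0.19) or cko 2 h array 2 (0.21), and H2-Ab1 without the same arrays (0.12 and 0.10). None of the 3 was called when the variance was not modelled on intensity (adjusted p of 0.053 to 0.18). The third Ciita probe set was higher by 1.08 ± 0.21, and the second, 0.30 ± 0.17, was not called.

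At 12 h all 9 genes differed between the genotypes, in both directions, where 51.3% of all genes were called. Ciita (0.58 ± 0.17), H2-DMa (0.55 ± 0.06), H2-DMb2 (0.30 ± 0.06), H2-Oa (0.72 ± 0.08) and H2-Ab1 (0.22 ± 0.05) were higher in cko, and Cd74 (-0.48 ± 0.07), H2-Aa (-0.36 ± 0.09), H2-Eb1 (-0.33 ± 0.05) and H2-Ob (-0.89 ± 0.12) were lower. The shares of all genes were 21.4% higher and 29.9% lower. This comparison crosses the array sets, with cko at the high actin ratio, so genotype and array set cannot be told apart in it. Quantile normalization called 5 higher and 1 lower: H2-Ob stayed lower (-0.80), Cd74 (-0.11) and H2-Aa (-0.08) were not called, and H2-Eb1 turned to 0.02. Median scaling called 5 higher and 2 lower. The call of Ciita was lost without wild-type 12 h array 2 (0.42) and that of H2-Aa without wild-type 12 h array 1 (-0.23).

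**Figure D3:**
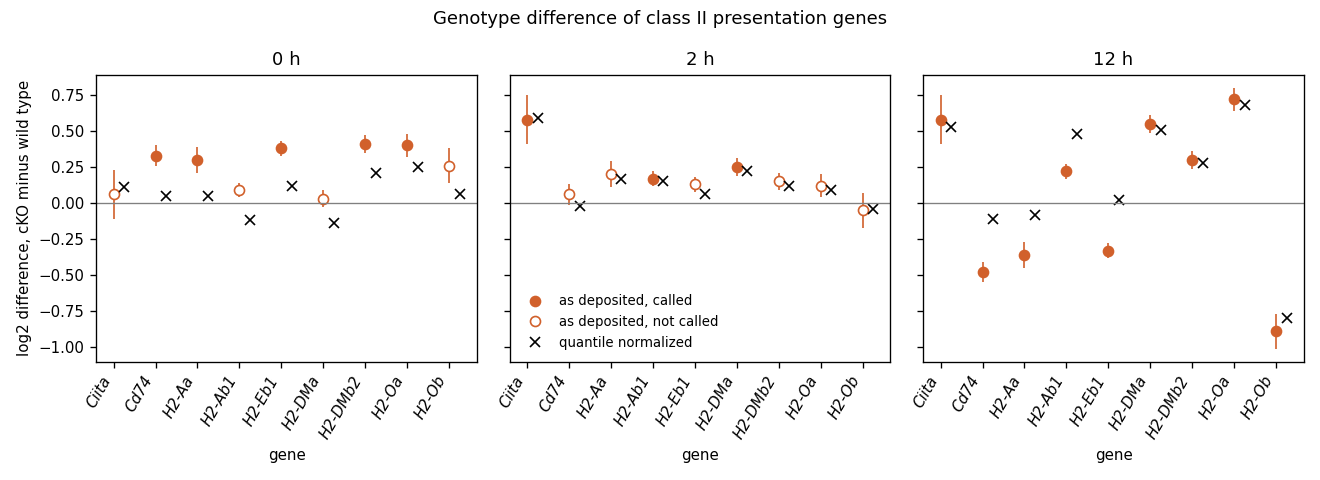
Log2 difference in signal, cko minus wild type (vertical axis), for each tested gene at 0, 2 and 12 h of anti-IgM, with SE bars and n = 2 arrays per group; filled circles were called, open circles were not, and crosses are the same differences after quantile normalization. At 12 h H2-Oa and H2-Ob lie apart at 0.72 and -0.89 with crosses beside them, whereas the crosses of Cd74, H2-Aa and H2-Eb1 lie near 0 at 12 h and that of H2-Ab1 lies below 0 at 0 h.

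The brightest probe sets of the H2-DO chains lay on opposite sides at 12 h. There H2-Oa read 2051 and 2145 in cko against 1383 and 1156 in wild type, while H2-Ob read 2439 and 2197 in cko against 4672 and 3951. Their responses differed between the genotypes at 12 h by 0.32 ± 0.11 for H2-Oa (adjusted p = 0.037) and by -1.15 ± 0.16 for H2-Ob (adjusted p = 5.8e-05), in a test of interaction. That test called 6 of 9 genes at 12 h, 2 of them higher and 4 lower in cko, where 43.2% of all genes were called, 18.8% higher and 24.4% lower. At 2 h it called 1 gene, H2-Eb1 (-0.25 ± 0.08), where 20.4% of all genes were called and 11.8% were lower. The H2-Oa value was not called without wild-type 0 h array 2 (0.28), wild-type 12 h array 2 (0.19), cko 0 h array 1 (0.34) or 2 (0.30), or cko 12 h array 2 (0.29). H2-Ob was called without each array in turn, after quantile normalization (-0.86) and after median scaling (-0.86). The interaction crosses the array sets. The array-set term takes up cko at 12 h, so the 1 genotype value of that fit comes from the 0 h and 2 h arrays. It was 0.11 for H2-Ob (adjusted p = 0.5) and 0.26 for H2-Oa (adjusted p = 0.027), which says nothing of 12 h. H2-Ob has 1 probe set of its own, and the probe set it shares with Gm20506 was higher in cko at 12 h.

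Several genes are read by probe sets that do not move together. H2-Ab1 probe set 1451721_a_at read 2963 and 2603 at 0 h in wild type, 7194 and 6592 at 2 h, and 310 and 393 at 12 h, and in cko 1807 and 1648, 8195 and 7978, and 3034 and 3573. It rose at 2 h by 1.31 ± 0.11 in wild type and 2.22 ± 0.11 in cko, where the brightest probe set fell (-0.41 and -0.33). The third H2-Ab1 probe set, 1425477_x_at, rose likewise by 1.13 ± 0.11 and 2.38 ± 0.11. Both fell at 12 h in wild type (-2.94 ± 0.11 and -2.89 ± 0.11), as did the brightest one. In cko, where the brightest fell at 12 h (-0.89 ± 0.05), both were higher than at 0 h (0.93 ± 0.11 and 0.86 ± 0.11). At 12 h their difference between the genotypes was 3.18 ± 0.11 and 2.86 ± 0.11, beside 0.22 ± 0.05 on the brightest.

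H2-Aa probe set 1452431_s_at and H2-DMb2 probe set 1419744_at showed the same shape. The former read 5903 and 5403, 13592 and 12567, and 1651 and 1585 in wild type, and 6260 and 5754, 14051 and 14821, and 8632 and 8338 in cko. The latter read 207 and 209, 309 and 272, and 54.8 and 56.2 in wild type, and 176 and 167, 373 and 363, and 365 and 322 in cko. From 0 h to 12 h in cko they rose by 0.50 ± 0.06 and 0.94 ± 0.14. Together with 1451721_a_at, both lay higher on all 6 arrays of the high actin ratio than on all 6 of the low ratio, as did 12.1% of all probe sets that passed the filter. The other H2-DMb2 probe set, 1443686_at, followed the brightest (-2.05 ± 0.07 in wild type and -2.19 ± 0.07 in cko at 12 h). H2-Aa probe set 1435290_x_at rose at 12 h in wild type (0.36 ± 0.06) and fell in cko (-0.51 ± 0.06), and 1443783_x_at fell in both (-0.82 ± 0.10 and -2.09 ± 0.10).

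**Figure D4:**
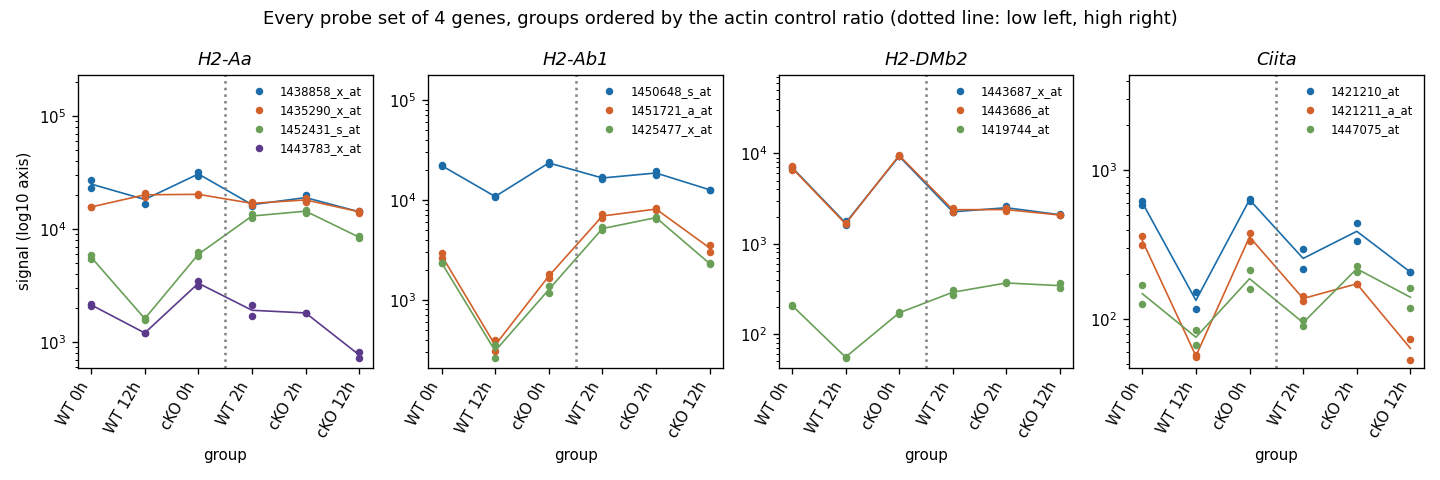
Signal of every probe set annotated to H2-Aa, H2-Ab1, H2-DMb2 or Ciita alone (log10 axis), by group, with 1 point per array and lines through the means of 2 arrays; the groups left of the dotted line have the low actin ratio and those right of it the high ratio. Probe sets 1452431_s_at, 1451721_a_at and 1419744_at lie higher on every array right of the line than on every array left of it, and the brightest probe set of each gene does not.

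Where the probe sets of a gene were averaged, H2-Ab1 at 2 h came to 0.67 in wild type and 1.42 in cko and H2-Aa in wild type to 0.14, the opposite sign to their brightest probe sets. In the comparison of 12 h with 0 h in wild type, within 1 array set, 17 of the 19 probe sets were lower, 1 was higher (1435290_x_at of H2-Aa) and 1 was not called (Cd74), where 43.6% of all probe sets were called and 22.1% were lower. In cko from 2 h to 12 h, also within 1 set, 14 of the 19 were lower and 0 were higher, where 43.8% of all probe sets were called and 20.2% were lower. From 0 h to 2 h, across the sets, 13 were lower and 4 higher in wild type (56.8% of all called, 30.8% lower). In cko, also across the sets, 14 were lower and 4 higher than at 0 h both at 2 h and at 12 h. Of all genes, not probe sets, 63% and 58.9% were called in those comparisons, and 39.2% and 33.1% were lower. H2-DMa has a dimmer probe set, 1459872_x_at, which fell in both genotypes at 12 h (-1.86 ± 0.14 and -2.45 ± 0.14) but was lower in cko at 12 h (-0.49 ± 0.14) where the brightest was higher. On this array type, names ending in _x_at or _s_at mark probe sets with probes that can match other transcripts. The brightest probe sets of H2-Aa (1438858_x_at), H2-Ab1 (1450648_s_at) and H2-DMb2 (1443687_x_at) end so, while 1451721_a_at and 1419744_at do not. Whether such matches play a part in the differences between probe sets was not tested.

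The probe sets that several genes share give the only reading of H2-DMb1, the other beta chain of H2-DM. Probe set 1449580_s_at of H2-DMb1 and H2-DMb2 read 1595 and 1847 at 0 h in wild type, 850 and 807 at 2 h, and 228 and 248 at 12 h, and in cko 1682 and 1763, 1141 and 1155, and 836 and 712. Probe set 1418638_at read 712 and 681, 329 and 400, and 160 and 132 in wild type, and 704 and 721, 584 and 596, and 284 and 320 in cko. Both were lower at each later time in each genotype, with no overlap, and how much of the signal is from either gene cannot be told. Probe set 1422201_at, shared by H2-Ob and the predicted gene Gm20506, read 1637 and 1518, 1486 and 1261, and 177 and 205 in wild type, and 1284 and 1055, 1274 and 1611, and 595 and 595 in cko. It was thus higher in cko than in wild type at 12 h, where the H2-Ob probe set was lower. The shared probe sets were left out of the tests.

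Among the genes that act on class II expression, regulators of the promoters were mixed. Of 21 tested genes for promoter-binding factors and Ciita regulators, 3 were higher and 11 lower at 12 h in wild type, where 23.1% of all genes were lower (median -0.27 beside 0.03 for all genes). At 2 h 6 were higher and 13 lower, where 36.2% of all genes were lower. Ebf1, a B cell identity factor (-1.64 ± 0.09), Foxo1, a quiescence factor (-1.43 ± 0.09), and Pou2af1, the B cell coactivator OBF1 (-1.02 ± 0.06), fell at 12 h. Irf4, a factor induced by receptor signalling, rose (1.45 ± 0.05). Of the X box factor RFX, Rfx5 fell by 1.10 ± 0.06 at 2 h and by 0.25 ± 0.06 at 12 h in wild type, Rfxank fell by 1.88 ± 0.14 at 2 h and was higher at 12 h (0.41 ± 0.14), and Rfxap was higher at 2 h (0.30 ± 0.11) and lower at 12 h (-0.57 ± 0.11). Prdm1, a repressor of Ciita in plasma cells, rose at 2 h (1.20 ± 0.25) from a signal near background (30) and was not called at 12 h (-0.07 ± 0.25).

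Marchf1, the ubiquitin ligase that removes class II from the surface, fell in wild type at 2 h (-3.76 ± 0.17) and 12 h (-3.36 ± 0.17) and in cko likewise (-3.84 ± 0.17 and -3.46 ± 0.17). Its mean signal at 0 h in wild type was 2718, and the fall exceeded that of every gene of the class II list. Cd83, which opposes Marchf1, rose in wild type at 2 h (0.75 ± 0.06) and at 12 h (0.74 ± 0.06) and was lower in cko at 12 h than at 0 h (-0.73 ± 0.06). These are the 2 genes tested of the list of class II ubiquitin turnover. H2-Eb2, a class II beta chain gene beside H2-Eb1, fell in wild type at 2 h (-1.51 ± 0.07) and 12 h (-1.60 ± 0.07) and in cko (-1.70 ± 0.07 and -2.39 ± 0.07). H2-Ea, the alpha chain partner of H2-Eb1, had a mean signal of 14.0 at 0 h in wild type and was not called in any of the 4 responses.

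Genes of antigen processing in the endosome and of class I presentation moved in both directions. Of 16 tested processing genes, 4 were higher and 6 lower at 12 h in wild type, where 47.9% of all genes were called and 23.1% were lower (median 0.09), among them the invariant chain protease Ctss (-0.59 ± 0.06), the thiol reductase Ifi30 (-0.75 ± 0.05), the tetraspanin Cd37 (-0.99 ± 0.07) and the membrane protein Lamp2 (1.09 ± 0.12). Of 15 tested class I genes, 4 were higher and 9 lower in the same comparison (median -0.39), among them the immunoproteasome subunits Psmb9 (-1.29 ± 0.07) and Psmb10 (-1.01 ± 0.07), the heavy chain H2-D1 (-1.01 ± 0.06) and the chaperone Canx (0.72 ± 0.07). The class II median in that comparison was -1.50. Between 2 h and 12 h in cko, where 49% of all genes were called and 18.7% were lower, 9 class I genes were higher and 4 lower (median 0.48), and 0 class II genes were higher.

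**Figure D5:**
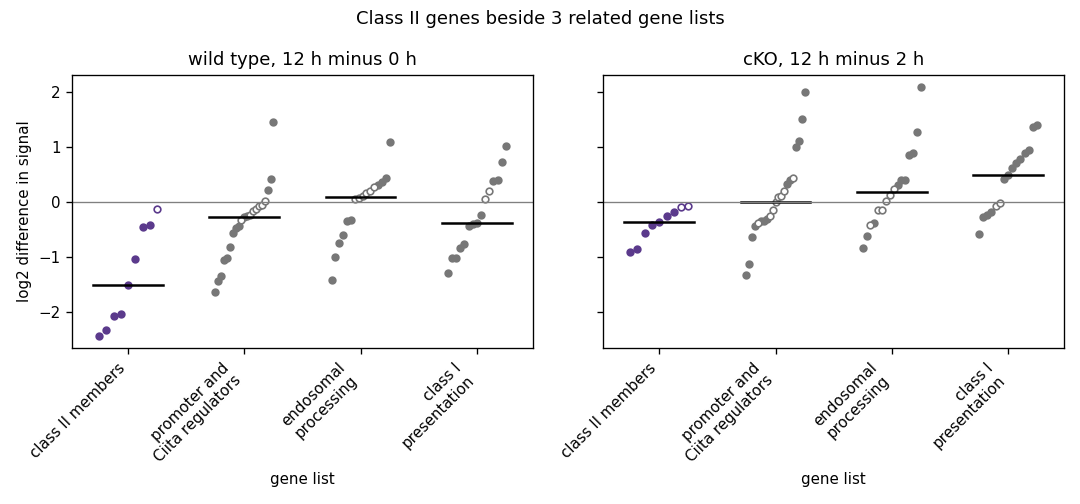
Log2 difference in signal (vertical axis) of each tested gene of the class II list (purple) and of 3 related lists (grey), in wild type at 12 h against 0 h and in cko at 12 h against 2 h, the comparisons that stay within 1 array set; filled points were called, open points were not, and black bars are medians. The class II medians are -1.50 and -0.36, those of class I presentation -0.39 and 0.48.

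At 12 h between the genotypes the class I list had 10 of 15 genes higher in cko and 3 lower (median 0.65), while the class II list had 5 higher and 4 lower (median 0.22), where 21.4% of all genes were higher and 29.9% lower. B2m, the light chain of class I molecules, was higher by 0.98 ± 0.05 and H2-K1 by 0.78 ± 0.05. At 0 h 6 of 15 class I genes were higher in cko and 1 was lower, the peptide-loading factor Tapbp (-0.92 ± 0.11), where 16.3% of all genes were higher (median 0.20). B2m was higher by 0.46 ± 0.05. These counts describe the lists and were not compared by a test.

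The class II genes followed a common course over the 6 groups to differing degrees. The correlation of a gene's 6 group means with the mean course of the 9 genes ran from 0.82 for Cd74 to 0.99 for H2-DMb2, and the range of its group means from 0.94 (Cd74) to 2.72 (H2-Oa) on the log2 scale; each gene is part of the mean course, and the points share arrays and scaling. Among all other tested genes, the course most like the mean course was that of Pirb, an inhibitory receptor gene (r = 0.9991 over 6 group means), followed by Hvcn1, a proton channel gene (0.9959), Zfp608 (0.9956), Hrh2, a histamine receptor gene (0.9941), and Lonp2, a peroxisomal protease gene (0.9927). Pirb had group means of 4.30 to 6.47 on the log2 scale, close to the filter of 5.14, and Hvcn1 means of 11.17 to 12.98.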

How the data were processed

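RNA of sorted follicular B cells was read on 12 mouse expression arrays, 2 in each of 6 groups of genotype and time. The authors deposited 1 linear intensity for each probe set on each array, made with GCOS 1.4 per the submitters' processing notes; no source used here gives its algorithm or detection calls. Each array had a mean of 250 after trimming 2% at each end, as checked on the values. Every signal was used as log2(signal + 16) with no further normalization, which understates changes of dim genes. Probe sets with 1 gene symbol and a mean over the 40th percentile (5.14) were kept, 21906 in all, and the brightest represented a gene. With limma 3.58.1 in R 4.3.3, 1 mean per group was fitted on all arrays (6 residual degrees of freedom) with an intensity trend, for 11 contrasts, two-sided. A gene was called, and the words rose and fell are used, at a Benjamini-Hochberg adjusted p under 0.05 over 12190 genes. Probe sets were fitted likewise over all 21906. The procedure was tested on simulated data.

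The genes and lists were chosen with earlier results of these data known. All probe sets of the class II genes are named; of other lists, up to 4 tested genes with the smallest p in the contrast described, any whose direction differs, and genes whose role bears on the pathway, the last chosen after their values were seen. The 5 genes of most similar course were ranked by Pearson correlation. Their number limits the precision of the arrays. The replicate numbers did not pair arrays (correlations of deviations from -0.0138 to 0.0128 over 15 pairs of groups). Alternatives were median scaling, quantile normalization, a pseudocount of 1 or of 64, the 60th percentile or no filter, no trend, array weights, the groups compared only, the replicate number as a block, averaging the probe sets of each gene, every probe set, each array left out, a size threshold of 1, a term for the array set and the means of duplicate arrays.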

Additional observations from a re-analysis of the deposited data

Results flagged for a closer look

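The response to anti-IgM differed between the genotypes, by a test of the interaction in limma, for 1 gene at 2 h and 6 genes at 12 h. At 2 h the H2-Eb1 response was lower in cko by -0.25 ± 0.08 (adjusted p = 0.033), where 20.4% of all genes were called; this was lost without wild-type 0 h array 1 (-0.20), wild-type 2 h array 1 (-0.23), cko 0 h array 1 (-0.27) or 2 (-0.23) or cko 2 h array 1 (-0.19), and after quantile normalization (-0.06). At 12 h the responses of Cd74 (-0.81 ± 0.10), H2-Aa (-0.66 ± 0.12), H2-Eb1 (-0.71 ± 0.08) and H2-Ob (-1.15 ± 0.16) were lower in cko, and those of H2-DMa (0.52 ± 0.08) and H2-Oa (0.32 ± 0.11) were higher. After quantile normalization the values were -0.16, -0.13 and -0.10 for Cd74, H2-Aa and H2-Eb1, none of them called, and -0.86, 0.65 and 0.43 for H2-Ob, H2-DMa and H2-Oa, all called. The dimmer H2-DMa probe set gave the opposite direction at 12 h (-0.59 ± 0.20). For H2-Aa, probe set 1452431_s_at did so as well (2.29 ± 0.09), while 1435290_x_at (-0.87 ± 0.08) and 1443783_x_at (-1.27 ± 0.14) were lower. H2-Ab1 and H2-DMb2, not called by their brightest probe sets, had others called higher: 1451721_a_at (3.86 ± 0.15), 1425477_x_at (3.75 ± 0.16) and 1419744_at (2.58 ± 0.19). The interaction at 12 h crosses the array sets, and the part of the array set in it was not tested.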

How the results depend on the processing

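Over 99 gene results (9 genes in 11 contrasts), leaving out an array gave 1188 values, of which 1146 kept direction and call, 30 lost the call, 12 gained it and 0 reversed. The other alternatives gave 1350 values, of which 1150 kept both, 150 lost the call, 22 gained it and 28 reversed. The number of class II genes called changed by over 1.5 times as follows. It became 3 at 0 h between the genotypes and 5 at 2 h in wild type with quantile normalization, and 0 at 2 h between the genotypes without the trend. For the interaction at 2 h, where 1 gene was called, it was 2 with quantile normalization, the pseudocount of 64, the 60th percentile or the groups compared only, 3 with the mean of probe sets, and 0 with median scaling, no filter or no trend. With a size threshold of 1 it was 0 between the genotypes at each time, from 2 h to 12 h in either genotype and for the interaction at 2 h, 5 and 4 at 2 h in wild type and cko, and 1 for the interaction at 12 h. The array-set term gave 4 between the genotypes at 12 h, but it takes up cko at 12 h, so this value comes from 0 h and 2 h. The means of duplicate arrays left 0 between the genotypes and from 2 h to 12 h, and 5 for each response from 0 h. Those additive models give each time the same genotype value, and both genotypes the same response, by construction. Without an array the count ranged from 0 to 3 for the interaction at 2 h and from 0 to 3 for the genotypes at 2 h. With the replicate number as a block, the interaction at 2 h called 2 of the class II genes and 2465 genes in all, against 2491; the numbers do not pair the arrays.

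Values that reversed with quantile normalization were H2-Ab1 between the genotypes at 0 h (-0.12) and from 0 h to 2 h in cko (0.24), H2-Eb1 between the genotypes at 12 h (0.02), and H2-Eb1 (-0.53), Cd74 (-0.24) and H2-Aa (-0.42) from 2 h to 12 h in wild type. With the mean of probe sets they were H2-Ab1 between the genotypes at 0 h (-0.50), at 2 h in wild type (0.67) and cko (1.42) and at 12 h in cko (0.30), H2-Aa between the genotypes at 12 h (0.22), at 2 h in wild type (0.14) and from 2 h to 12 h in wild type (-0.81), and the interaction at 12 h of H2-DMb2 (0.78) and H2-DMa (-0.03). With the array-set term they were H2-Eb1 (0.25), Cd74 (0.20), H2-Aa (0.25) and H2-Ob (0.11) between the genotypes at 12 h, Cd74 at 2 h in either genotype (0.05), and H2-Eb1 (-0.42), Cd74 (-0.24) and H2-Aa (-0.44) from 2 h to 12 h in wild type. By construction, the genotype values of that fit come from 0 h and 2 h, and no wild-type 12 h array enters its values from 2 h to 12 h. With the means of duplicates they were Cd74 between the genotypes at 0 h (-0.03) and from 2 h to 12 h in cko (0.09), and H2-Eb1 (0.06) and H2-Aa (0.05) between the genotypes at 12 h. Where not given by construction, the cause was not tested. Median scaling moved the median of all genes from -0.24 to -0.04 at 2 h in wild type and from -0.32 to -0.03 in cko.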
